A study of Rattus norvegicus with 36 samples.

Results

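The main effect of a high-salt diet on microRNAs of the rat aorta was estimated over 3 strains at once. Libraries from animals on the high-salt diet (HSD, 4% NaCl) were set against libraries from animals on the normal-salt diet (NSD) in a model that held strain and diet as additive terms. It used 32 of the 34 library columns of the deposited table: 5 HSD and 5 NSD libraries of the Dahl salt-sensitive strain (SS), 5 and 5 of S2Ba, and 6 and 6 of S2Bb. S2Ba and S2Bb are congenic SS rats in which part of chromosome 2 comes from the Brown Norway (BN) rat, the distal portion in S2Ba and a middle segment in S2Bb. All animals were male, began their diet at 4 to 6 weeks of age and were followed to 12 to 13 weeks. Small RNAs were sequenced from a piece of the descending thoracic aorta of each. SS HSD replicate 3 and S2Ba HSD replicate 2 were not analysed here, and a pair of columns with identical values, labelled SS NSD replicate 1 and S2Ba NSD replicate 4, was left out.

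MicroRNAs are short RNAs that guide Argonaute proteins to messenger RNAs, mainly through the seed, bases 2 to 8 of the mature strand. Each hairpin precursor gives a 5p and a 3p arm, of which usually 1 is abundant, and microRNAs encoded close together are often cut from the same primary transcript. The wall of the aorta consists largely of smooth muscle, whose best-known microRNAs are miR-143 and miR-145, with an endothelial lining marked by miR-126. SS rats become hypertensive on a high-salt diet, with vascular remodelling and inflammation.

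Recovered depth was 2.31 to 24.1 M reads in the HSD libraries and 6.56 to 42.4 M reads in the NSD libraries, and the shallowest were SS HSD replicate 2 with 2.31 M and SS NSD replicate 6 with 6.56 M. The smooth muscle marker expected of an aorta was abundant in every library, and miR-143-3p had 229820.0, 573314 and 655921 nRPM (lowest, median and highest) in the HSD libraries and 335630.0, 577276 and 736643 nRPM in the NSD libraries. Wherever 3 levels are given for a diet below, they are in this order. The unit nRPM is the deposited signal, reads per microRNA normalized for library size. Sample titles carry numbers that are lower for NSD animals in SS and S2Ba, so that number order and diet cannot be told apart there. In S2Bb only HSD replicates 2 and 3 break this order, and both are treated apart below.

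The mature sequences of the microRNAs on which the results turn follow, from RefSeq (GRCr8), 5′ to 3′ with the seed in capitals. The first group holds called microRNAs beside relatives of the same seed, since these share potential targets and, where they differ by a single base, may share reads.
miR-132-3p: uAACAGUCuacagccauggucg
miR-212-3p: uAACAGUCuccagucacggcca
miR-146b-5p: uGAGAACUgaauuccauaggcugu
miR-146a-5p: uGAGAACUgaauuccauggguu
miR-27a-3p: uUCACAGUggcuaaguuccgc
miR-27b-3p: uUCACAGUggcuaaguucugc
miR-130a-3p: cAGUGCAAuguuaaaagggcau
miR-130b-3p: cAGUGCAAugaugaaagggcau
miR-133b-3p: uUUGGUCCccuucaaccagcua
miR-133a-3p: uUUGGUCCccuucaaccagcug
miR-211-5p: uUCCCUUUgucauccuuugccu
miR-204-5p: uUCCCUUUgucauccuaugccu
The second group holds called microRNAs whose change was large or well separated from the spread between libraries.
miR-138-5p: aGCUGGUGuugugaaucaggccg
miR-92b-3p: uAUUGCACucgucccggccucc
miR-22-3p: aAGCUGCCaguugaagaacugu
miR-210-3p: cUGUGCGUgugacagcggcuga
miR-192-5p: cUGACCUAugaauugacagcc
miR-10b-5p: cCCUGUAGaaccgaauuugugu
Positions below count from 1 at the 5′ end, and a token such as A17U gives the base of the relative, the position and the base of the called microRNA. miR-133b-3p differs from miR-133a-3p by G22A alone, miR-211-5p from miR-204-5p by A17U alone and miR-27a-3p from miR-27b-3p by U19C alone. miR-146b-5p differs from miR-146a-5p by G18A and U21C before its longer end, and miR-130b-3p from miR-130a-3p by U11A and A13G. The sources used here do not say how reads were assigned to such relatives.

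A limited set of aortic microRNAs differed between the diets, mostly by modest amounts. Of 484 microRNAs that reached 1 nRPM in 5 or more libraries, 61 (12.6%) passed a limma test at a Benjamini-Hochberg adjusted p under 0.05, and these are the calls below. On HSD 36 (7.44%) were higher and 25 (5.17%) were lower. The calls comprised 40 of the 275 names in miRBase style (14.5%), 28 higher and 12 lower, and 21 of the 209 names of the form miR-n (10%), 8 higher and 13 lower. At an unadjusted p under 0.05 there were 134 microRNAs (27.7%). Log2 changes are HSD minus NSD on the log2(nRPM + 1) scale, adjusted for strain, so that changes of rare microRNAs come out smaller than their ratios. The median size of a called change was 0.47 on that scale and the smallest 0.29, and 5 calls were beyond 1, of which 4 were higher. In 32 calls the mean over libraries was at least 10 nRPM, in 7 it was at least 1000 nRPM and in 7 it was below 1 nRPM. The filter counts libraries of either diet, so a rare microRNA can pass it through the diet on which it is high alone. For 0 of the 484 microRNAs (0%) did all HSD libraries stand apart from all NSD libraries. Within a strain and in the direction of the main effect, the diets did not overlap for 6 microRNAs in SS (1.24%), 13 in S2Ba (2.69%) and 23 in S2Bb (4.75%). This held in more than 1 strain for 5 (1.03%), namely miR-92b-3p, miR-212-5p, miR-146b-5p, miR-210-3p and miR-10b-5p. The split into higher and lower calls moved with the scaling of libraries, being 49 and 14 when reads were scaled to the library total, and 30 and 34 with size factors from the median of ratios (RLE). Counts of calls within the lists below stand beside these shares over all 484, of which 233 had a positive and 251 a negative change.

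**Figure D1:**
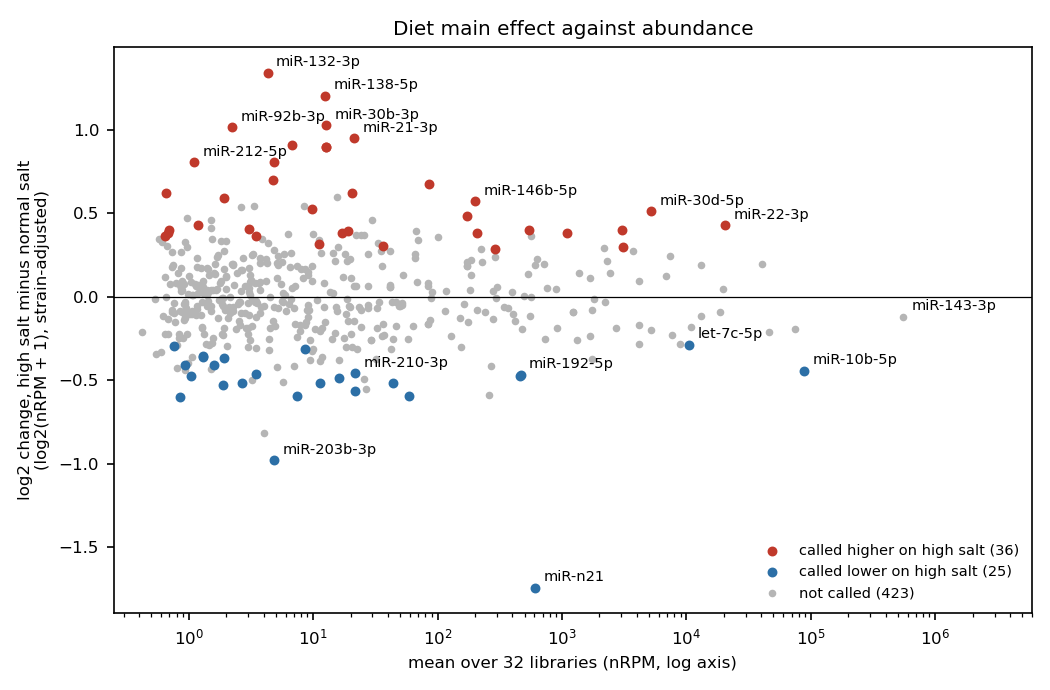
Log2 change on HSD relative to NSD (vertical axis, strain-adjusted) against mean signal over 32 libraries (horizontal log axis, nRPM), 1 point per tested microRNA. The 36 higher calls include rare miR-212-5p as well as miR-22-3p at a mean of 20422 nRPM, the 25 lower calls include abundant miR-10b-5p and let-7c-5p, and miR-n21 lies far below the rest.

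The largest rise among miRBase names was in miR-132-3p, which is induced by the transcription factor CREB and is processed from the same primary transcript as miR-212. In the HSD libraries miR-132-3p had 1.85, 4.94 and 22.3 nRPM (lowest, median and highest), against 0.637, 1.73 and 3.29 nRPM in the NSD libraries. All 16 HSD libraries lay above the median of the NSD libraries of their own strain, and 13 lay above every NSD library. The log2 change was 1.34 ± 0.20 (SE) with a limma adjusted p of 6.08e-05. miR-212-5p had 0.283, 1.49 and 3.97 nRPM on HSD, against 0.199, 0.425 and 0.877 nRPM on NSD, and 13 HSD libraries again exceeded every NSD library. This was a log2 change of 0.81 ± 0.15 (limma adjusted p = 0.000267). miR-212-3p, which has the seed AACAGUC of miR-132-3p and differs from it at 5 bases, had 0.259, 0.960 and 2.26 nRPM on HSD, against 0.0419, 0.206 and 0.877 nRPM on NSD. The fitted log2 change was 0.62 ± 0.12 (limma adjusted p = 0.000513), and here too all 16 HSD libraries lay above their strain's NSD median. miR-132-5p did not reach the filter, with a median of 0.462 nRPM on HSD and 0.0876 nRPM on NSD. The 3 tested members of this cluster were thus all called higher, but as they come from 1 primary transcript they are not separate observations. Both miR-212 arms reached 1 nRPM in HSD libraries only, so they passed the filter through the diet on which they are high. Several values of miR-212 are close to or below the 3-read floor of their library, which is 0.941 nRPM in SS HSD replicate 2. This was not confined to shallow libraries. miR-212-3p had 0.0419 nRPM in S2Ba NSD replicate 5 (24.6 M reads, floor 0.126 nRPM). In S2Bb NSD replicate 4 it had 0.0796 nRPM (25.1 M reads, floor 0.119 nRPM).

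miR-138-5p, abundant in brain, showed the second-largest rise among miRBase names. It had 6.22, 14.8 and 44.4 nRPM on HSD, against 2.51, 4.72 and 39.3 nRPM on NSD. The highest NSD value belonged to S2Ba NSD replicate 1, while the other 15 NSD libraries reached no higher than 10.6 nRPM. The log2 change was 1.20 ± 0.25 (SE) with a limma adjusted p of 0.00113, and it was higher in 15 of the 16 HSD libraries than the NSD median of their strain. The neuronal list held 5 tested members, of which 2 were called higher, 0 were called lower and 4 had a positive change, with a median of 0.37 against -0.01 over all 484. miR-128-3p was the other call, at 0.39 ± 0.13 (limma adjusted p = 0.0433), and it was lost in 16 of 32 leave-one-out fits, with an adjusted p of up to 0.0735 without S2Bb NSD replicate 3. Without the 2 shallowest libraries 4 of the 5 were called higher. miR-338-3p and miR-218a-5p had log2 changes of 0.37 and 0.36 and were not called. The summed level of the 7 listed neuronal microRNAs was 89.1 to 278 nRPM on HSD and 105 to 208 nRPM on NSD. miR-124-3p, the microRNA that defines neurons, had a median of 0 nRPM on HSD and 0.102 nRPM on NSD and was at 0 in 17 libraries.

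miR-92b-3p, a relative of miR-92a whose own gene lies on chromosome 2, had 1.36, 2.88 and 12.5 nRPM on HSD, against 0.444, 0.931 and 2.01 nRPM on NSD. On HSD 12 of 16 libraries exceeded every NSD library, and within S2Ba and within S2Bb the diets did not overlap. The log2 change was 1.01 ± 0.16 (SE, limma adjusted p = 6.08e-05). SS HSD replicate 2, the shallowest library, held the value of 12.5 nRPM, and the call was kept without it. miR-92a-3p, from which it differs by U10C and G21C, averaged 78.0 ± 30.5 nRPM on HSD and 57.1 ± 16.98 nRPM on NSD (SD, n = 16 each) and was not called (log2 change 0.40 ± 0.15, limma adjusted p = 0.0758). In the miR-17-92 clusters, which favour cell proliferation, 1 of 9 tested members was called higher, 0 were called lower and the median was -0.01. With RLE factors 0 were called higher and 1 lower, and without the 2 shallowest libraries 2 higher and 1 lower. That member, miR-17-5p, had a log2 change of 0.36 ± 0.12 (limma adjusted p = 0.0436) and was lost in 20 of 32 leave-one-out fits, with an adjusted p of up to 0.0743 without S2Bb HSD replicate 1, and with RLE factors. The miR-17-5p ranges were 2.47, 3.87 and 6.78 nRPM on HSD and 1.49, 2.54 and 4.89 nRPM on NSD.

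In the miR-30 family, whose seed-bearing 5p arms are abundant in the vessel wall, the calls were miR-30b-3p and both arms of miR-30d, which are encoded at 1 locus. miR-30b-3p, the rarer arm of miR-30b, had 7.59, 15.7 and 31.9 nRPM on HSD, against 4.04, 7.46 and 15.3 nRPM on NSD. All 16 HSD libraries lay above the NSD median of their strain and 9 above every NSD library. This gave a log2 change of 1.03 ± 0.17 (SE, limma adjusted p = 6.08e-05). miR-30d-5p, among the more abundant calls, had 4488, 5863 and 9749 nRPM on HSD, against 3330.4, 4147 and 6136 nRPM on NSD, and again all 16 HSD libraries lay above their strain's NSD median. Its log2 change was 0.51 ± 0.09 (limma adjusted p = 0.000146), and that of miR-30d-3p was 0.62 ± 0.12 (limma adjusted p = 0.000497). Over the 11 tested members the count was 3 higher, 0 lower and 8 not called, with a median of -0.01. The abundant arm of miR-30b, miR-30b-5p, averaged 269 ± 104 nRPM on HSD and 284 ± 93.0 nRPM on NSD (SD, n = 16 each) and was not called (-0.13 ± 0.15, limma adjusted p = 0.614). miR-384-5p, which has the GUAAACA seed of the family but is not among the 11, was called higher at 0.38 ± 0.11 (limma adjusted p = 0.021) with medians of 0.786 nRPM on HSD and 0.431 nRPM on NSD. It reached 1 nRPM in HSD libraries only, through which it passed the filter. miR-384-5p was among 10 calls that the naming rule did not take and that are named after their values were seen. The others are miR-92b-3p, miR-708-5p, miR-708-3p, miR-674-3p, miR-188-5p, miR-130a-3p, miR-130b-3p, miR-29c-5p and miR-n21.

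**Figure D2:**
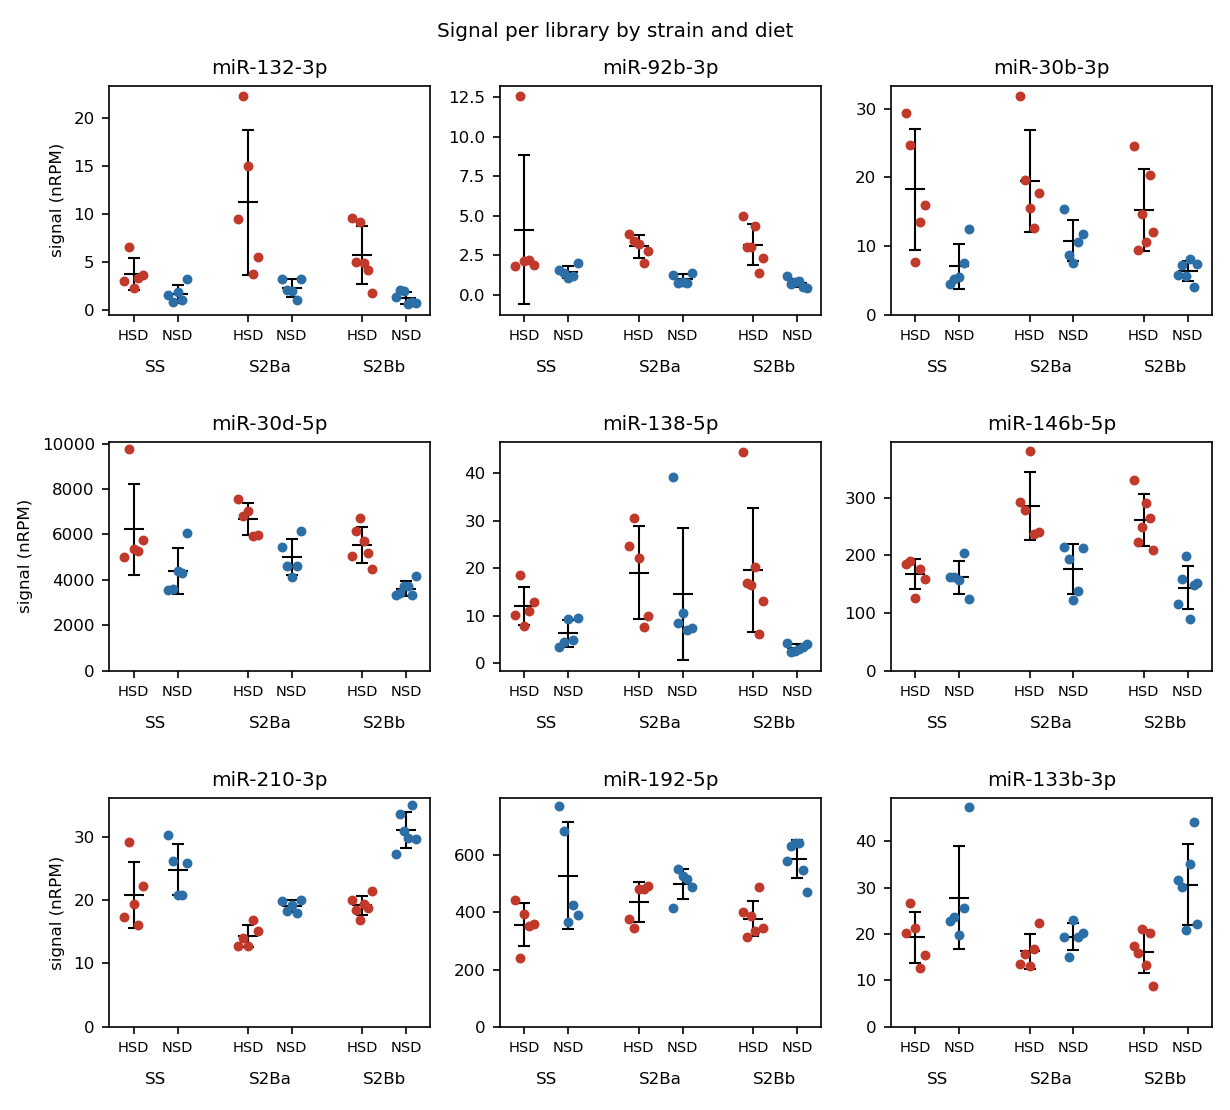
Signal in nRPM (vertical axis, linear) of 9 called microRNAs in each library, by strain and diet, with HSD left of NSD. Points are libraries, and bars give the mean and SD of 5 or 6 libraries. miR-132-3p, miR-92b-3p, miR-30b-3p and miR-30d-5p are higher on HSD in each strain, with overlap in some, miR-138-5p reached 39.3 nRPM in 1 NSD library of S2Ba, and miR-210-3p is lower on HSD without overlap in S2Ba and S2Bb.

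Of 17 tested microRNAs tied to inflammation, 6 were called higher, 0 lower and 11 were not called, against 7.44% higher and 5.17% lower over all microRNAs tested. The median log2 change was 0.19, against -0.01 over all. With RLE factors the count was 5 higher and 1 lower, and without the 2 shallowest libraries 6 higher and 2 lower. Besides miR-132-3p and the miR-212 arms, the calls were miR-146b-5p, which damps NF-kB signalling, and the arms of miR-21, which is induced in activated fibroblasts and macrophages. The first 3 come from 1 primary transcript and the miR-21 arms from 1 precursor, so the 6 calls are not 6 separate observations. miR-146b-5p had 127, 239 and 382 nRPM on HSD, against 90.1, 158 and 214 nRPM on NSD, with 10 HSD libraries above every NSD library. Its log2 change was 0.57 ± 0.12 (SE, limma adjusted p = 0.00161). Within SS it averaged 168 ± 25.8 nRPM on HSD and 162 ± 28.4 nRPM on NSD (SD, n = 5 each), while within S2Ba and within S2Bb the diets did not overlap. Its relative miR-146a-5p, a marker of white blood cells, averaged 189 ± 49.3 nRPM on HSD and 182 ± 75.6 nRPM on NSD and was not called (0.13 ± 0.15, limma adjusted p = 0.608). The 5 tested white blood cell microRNAs held 0 calls, and their summed level was 238 to 494 nRPM on HSD and 194 to 481 nRPM on NSD. Of these 5, 4 had a positive change, and the median was 0.13. Within S2Bb, however, miR-223-3p of this list was higher (7.21 ± 2.37 nRPM on HSD and 4.27 ± 0.69 nRPM on NSD, SD, n = 6 each). Its log2 change was 0.60 there (limma adjusted p = 0.0376) and -0.30 in SS.

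Both arms of miR-21 were called, the abundant miR-21-5p less firmly. miR-21-3p had 6.27, 19.5 and 102 nRPM on HSD, against 2.72, 12.4 and 35.9 nRPM on NSD, and all 16 HSD libraries lay above the NSD median of their strain. The change on the log2 scale was 0.95 ± 0.24 (SE, limma adjusted p = 0.0082). miR-21-5p had 1333, 3259.7 and 5407 nRPM on HSD, against 1212, 2528 and 4587 nRPM on NSD, with a log2 change of 0.40 ± 0.13 (limma adjusted p = 0.0439). That call was lost in 22 of 32 leave-one-out fits, with an adjusted p of up to 0.0753 without S2Ba HSD replicate 4, and with RLE factors. In the fibrosis list, 3 of 8 tested members were called higher and 0 lower, 7 had a positive change and the median was 0.23. With RLE factors 2 were called and under total-read scaling 4. The miR-21 arms make up 2 of the 3 calls and come from 1 precursor. The third was miR-29a-3p, whose family represses collagen messages. It had 418, 643 and 863 nRPM on HSD, against 332, 405 and 687 nRPM on NSD, and 15 HSD libraries lay above their strain's NSD median (log2 change 0.40 ± 0.12, limma adjusted p = 0.028). The call was lost without the 2 S2Bb HSD libraries of low title number and without any 1 strain, and its adjusted p reached 0.0491 in leave-one-out fits. miR-29b-3p and miR-29c-3p, with the same AGCACCA seed, had changes of 0.23 ± 0.13 and 0.22 ± 0.13 and were not called. The rare arm miR-29c-5p was called lower at -0.31 ± 0.11 (limma adjusted p = 0.0438), a call lost in 21 of 32 leave-one-out fits, with an adjusted p of up to 0.0702 without SS HSD replicate 5, and under total-read scaling.

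Among microRNAs of high abundance, miR-22-3p, which promotes the contractile state of smooth muscle, had 16841, 24364 and 31449 nRPM on HSD, against 11939, 16882 and 29205 nRPM on NSD. The diets overlapped except within S2Ba, and 14 HSD libraries lay above the NSD median of their strain. Its log2 change was 0.43 ± 0.10 (SE, limma adjusted p = 0.00225). The cluster of miR-23a, miR-27a and miR-24-2, whose precursors lie within 10 kb of each other in the reference annotation, moved in the same direction in its 5 tested members, of which 3 were called. miR-24-2-5p had 85.3, 192 and 382 nRPM on HSD, against 102, 125 and 257 nRPM on NSD, and 15 HSD libraries lay above the NSD median of their strain. Its log2 change was 0.48 ± 0.12 (limma adjusted p = 0.00763). For miR-27a-3p the range was 537, 1266 and 1641 nRPM on HSD and 715, 926 and 1277 nRPM on NSD, with a log2 change of 0.38 ± 0.10 (limma adjusted p = 0.0116). In each of these the lowest HSD library was SS HSD replicate 2, the shallowest, and the calls were kept without it. miR-24-3p, which a second precursor also yields, was called at 0.30 ± 0.10 (limma adjusted p = 0.041) but was lost in 14 of 32 leave-one-out fits, with an adjusted p of up to 0.0648 without S2Bb HSD replicate 2, and with RLE factors. miR-23a-3p and miR-27a-5p had changes of 0.20 ± 0.08 and 0.34 ± 0.14 and were not called. miR-27b-3p, which differs from miR-27a-3p by 1 base and was among the 5 most abundant microRNAs, averaged 43699.6 ± 5988 nRPM on HSD and 38100.4 ± 6031 nRPM on NSD (SD, n = 16 each) and was not called (0.20 ± 0.08, limma adjusted p = 0.117).

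Smaller rises were spread over several families. miR-130a-3p and miR-130b-3p, which share the seed AGUGCAA, were called at 0.29 ± 0.08 and 0.43 ± 0.15 (limma adjusted p = 0.0126 and 0.0455). All 16 HSD libraries of miR-130a-3p lay above their strain's NSD median, with a range of 261, 306 and 399.7 nRPM on HSD and 217, 251 and 375 nRPM on NSD. The miR-130b-3p call was lost in 24 of 32 leave-one-out fits, with an adjusted p of up to 0.0764 without S2Bb NSD replicate 3, and with RLE factors. miR-140-5p, best known from cartilage, had 135, 232 and 336 nRPM on HSD, against 136, 179 and 288 nRPM on NSD (log2 change 0.38 ± 0.10, limma adjusted p = 0.00759), while its far more abundant arm miR-140-3p was not called (0.12 ± 0.10). miR-449a-5p, which shares the seed GGCAGUG with the p53-linked miR-34 microRNAs, was called at 0.40 ± 0.11 (limma adjusted p = 0.0177), with medians of 0.823 nRPM on HSD and 0.407 nRPM on NSD. On NSD its highest value was 0.956 nRPM, so it passed the filter through HSD libraries alone. miR-34a-5p and miR-34c-5p had changes of 0.31 ± 0.16 and 0.32 ± 0.16 and were not called. In SS NSD replicate 6 miR-449a-5p was at 0, which allows up to 0.464 nRPM. miR-674-3p and miR-188-5p were called at 0.52 ± 0.13 and 0.41 ± 0.11, and each was higher in 15 HSD libraries than its strain's NSD median. miR-335 and miR-330-5p were called at 0.38 ± 0.12 and 0.32 ± 0.10 but were lost in 12 and 19 of 32 leave-one-out fits, with adjusted p of up to 0.0648 without S2Ba HSD replicate 1 and 0.0726 without SS HSD replicate 6, and miR-330-5p also with RLE factors, edgeR or DESeq2.

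The lower call with the smallest p was miR-210-3p, the microRNA induced by hypoxia through HIF. It had 12.7, 17.9 and 29.2 nRPM on HSD, against 17.9, 26.04 and 34.98 nRPM on NSD. On HSD 15 of 16 libraries lay below the NSD median of their strain and 8 below every NSD library, and within S2Ba and within S2Bb the diets did not overlap. The log2 change was -0.46 ± 0.08 (SE) with a limma adjusted p of 0.000267. SS HSD replicates ranged from 16.1 to 29.2 nRPM, and the largest of these was the highest of all HSD values. miR-210-5p did not reach the filter, with medians of 0.182 nRPM on HSD and 0.211 nRPM on NSD.

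miR-192-5p, known from liver, kidney and gut, had 239, 383 and 492.8 nRPM on HSD, against 366, 538 and 772 nRPM on NSD, and 15 HSD libraries lay below the NSD median of their strain. On the log2 scale miR-192-5p changed by -0.47 ± 0.10 (SE, limma adjusted p = 0.00225). A miR-n name held values that differed from those of miR-192-5p by at most 2.65%, so this pair is not 2 separate calls, and another pair of called miR-n names held identical values. Of the liver list, 2 of 3 members were tested and 1 was called lower. miR-122-5p, which defines hepatocytes, had medians of 0.0425 nRPM on HSD and 0.0837 nRPM on NSD and was at 0 in 12 libraries. Bulk RNA cannot tell fewer cells of a type from less of a microRNA per cell, here and in the lists below.

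Striated muscle microRNAs did not move together. miR-133b-3p had 8.82, 16.3 and 26.7 nRPM on HSD, against 15.01, 22.9 and 47.3 nRPM on NSD, and 14 HSD libraries lay below the NSD median of their strain. Its log2 change was -0.56 ± 0.14 (SE, limma adjusted p = 0.00553). miR-133a-3p, which differs from it only in the last base, averaged 653 ± 251 nRPM on HSD and 553 ± 80.0 nRPM on NSD (SD, n = 16 each) and was not called (0.19 ± 0.10, limma adjusted p = 0.198). SS HSD replicate 2, the shallowest library, held 1546 nRPM of miR-133a-3p, while the other HSD libraries held 429 to 737 nRPM. The rare arm miR-133a-5p was called higher at 0.37 ± 0.11 (limma adjusted p = 0.0213), with medians of 0.772 nRPM on HSD and 0.420 nRPM on NSD. No NSD library reached 1 nRPM for this arm, so it passed the filter through HSD libraries alone. miR-1-3p, usually transcribed with miR-133a, had medians of 0.631 nRPM on HSD and 0.621 nRPM on NSD. Summed over the list, striated muscle microRNAs reached 446 to 1576 nRPM on HSD and 454 to 744 nRPM on NSD, and 2 of 4 tested members had a positive change.

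The largest fall among miRBase names was in miR-203b-3p, and with miR-203a-3p it made up the 2 lower calls among 6 tested epithelial microRNAs. miR-203b-3p had 0.961, 2.14 and 5.82 nRPM on HSD, against 1.48, 4.66 and 25.3 nRPM on NSD, with 12 HSD libraries below their strain's NSD median. On the log2 scale it changed by -0.98 ± 0.26 (SE, limma adjusted p = 0.0131). miR-203a-3p, abundant in skin, was called at -0.51 ± 0.17 (limma adjusted p = 0.0406) but was lost in 13 of 32 leave-one-out fits, with an adjusted p of up to 0.0650 without SS NSD replicate 2, and under total-read scaling. The list's median was -0.17, and 4 of 6 members had a negative change (3 of 6 under total-read scaling). Its summed level was 31.6 to 102 nRPM on HSD and 40.9 to 109 nRPM on NSD, and the defining markers miR-200a-3p, miR-200b-3p and miR-200c-3p had medians of 0.233, 0.103 and 0.0571 nRPM on HSD and 0.153, 0.124 and 0.102 nRPM on NSD. What other cells contributed to the miR-203 result was not tested.

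miR-10b-5p from the Hoxd cluster, the second most abundant microRNA on average, had 35486, 77745 and 113708 nRPM on HSD, against 61633, 93688 and 213598 nRPM on NSD. Its diets did not overlap within SS or within S2Ba, and the log2 change was -0.44 ± 0.12 (SE, limma adjusted p = 0.0162). Within S2Bb it averaged 71659 ± 25563 nRPM on HSD and 76818 ± 15926 nRPM on NSD (SD, n = 6 each). Of 6 tested Hox microRNAs, 1 was called lower, 0 higher and 5 had a negative change (4 under total-read scaling), with a median of -0.28. miR-10a-5p was not called (-0.19 ± 0.09). Of 8 tested let-7 microRNAs, which restrain growth in differentiated cells, 7 had a negative change under the deposited scaling and 8 with RLE factors, and the median was -0.19. With RLE factors, and without the 2 shallowest libraries, 2 members were called lower. As deposited let-7c-5p alone was called, with 7520.1, 9157 and 12795 nRPM on HSD and 8465, 10825 and 19942 nRPM on NSD, at -0.29 ± 0.09 (limma adjusted p = 0.0366). The call was lost under total-read scaling, which left 0 let-7 calls, and in 8 of 32 leave-one-out fits, with an adjusted p of up to 0.0580 without S2Bb HSD replicate 3.

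The X-linked miR-322 cluster, counterpart of human miR-424 and miR-503, had a negative change in 7 of 7 tested members (6 of 7 under total-read scaling), against 251 of 484 over all, with a median of -0.24, and 1 was called lower. That member, miR-542-3p, had 3.14, 14.2 and 20.1 nRPM on HSD, against 11.3, 19.3 and 29.9 nRPM on NSD, with 15 HSD libraries below their strain's NSD median (log2 change -0.49 ± 0.16, limma adjusted p = 0.0436). It was lost in 16 of 32 leave-one-out fits, with an adjusted p of up to 0.0734 without SS NSD replicate 2, and under total-read scaling. The rest of this cluster are its other arm and neighbours with precursors within 10 kb, so the 7 signs are not separate observations. One of these neighbours, miR-503-3p, was at -0.0085 ± 0.14. miR-211-5p was called lower at -0.36 ± 0.10 (limma adjusted p = 0.021), with medians of 0.959 nRPM on HSD and 1.51 nRPM on NSD. That call was lost under total-read scaling and without the 2 S2Bb HSD libraries of low title number. Its relative miR-204-5p, an intronic microRNA of Trpm3 that is more than 100 nRPM in all libraries and differs by 1 base, was not called (-0.41 ± 0.15, limma adjusted p = 0.0662), and whether its reads entered the miR-211-5p values was not tested. It was called with RLE factors, DESeq2, limma-voom or group means, without SS, without the 2 shallowest libraries, and in 3 leave-one-out fits (without SS HSD replicate 2, SS NSD replicate 2 or SS NSD replicate 4). The arms of miR-708, an intronic microRNA of Tenm4, were called lower together: miR-708-5p at -0.60 ± 0.13 and miR-708-3p at -0.41 ± 0.13 (limma adjusted p = 0.00205 and 0.0362). For miR-708-5p all 16 HSD libraries lay below their strain's NSD median, and its range was 0, 0.380 and 0.792 nRPM on HSD and 0.228, 1.08 and 2.72 nRPM on NSD. The 0 belongs to SS HSD replicate 2, where it allows up to 0.941 nRPM. No HSD library reached 1 nRPM for miR-708-5p, so it passed the filter through NSD libraries alone. The miR-708-3p call was lost in 7 of 32 leave-one-out fits, with an adjusted p of up to 0.0586 without S2Bb HSD replicate 1, and under total-read scaling.

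Names of the form miR-n, which the sources used here do not define, included some of the smallest p values. miR-n156 had 58.9, 109 and 155 nRPM on HSD, against 47.6, 61.3 and 105 nRPM on NSD, and all 16 HSD libraries lay above their strain's NSD median (log2 change 0.67 ± 0.11, limma adjusted p = 6.08e-05). miR-n5 was higher at 0.91 ± 0.21, and miR-n266 and miR-n260 were lower at -0.59 ± 0.11 and -0.51 ± 0.10, with 12 and 11 HSD libraries below every NSD library. The values of miR-n266 and miR-n260 rose and fell nearly together over the libraries. Both were highest on HSD in SS HSD replicate 1 (72.4 and 52.2 nRPM) and on NSD in S2Bb NSD replicate 5 (111 and 77.0 nRPM). Whether these names are separate observations was not tested. The largest change of all, -1.74 ± 0.58 for miR-n21 (limma adjusted p = 0.0438), rested on a few NSD libraries. On HSD it had 14.4, 28.1 and 99.2 nRPM and on NSD 17.7, 68.5 and 15342.5 nRPM, and SS NSD replicates 4, 5 and 6 held 749, 1893 and 15342.5 nRPM. It was lost in 20 of 32 leave-one-out fits, with an adjusted p of up to 0.0705 without SS HSD replicate 5, and under total-read scaling, and the change was -1.30 without SS NSD replicate 6 and -0.80 without SS.

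**Figure D3:**
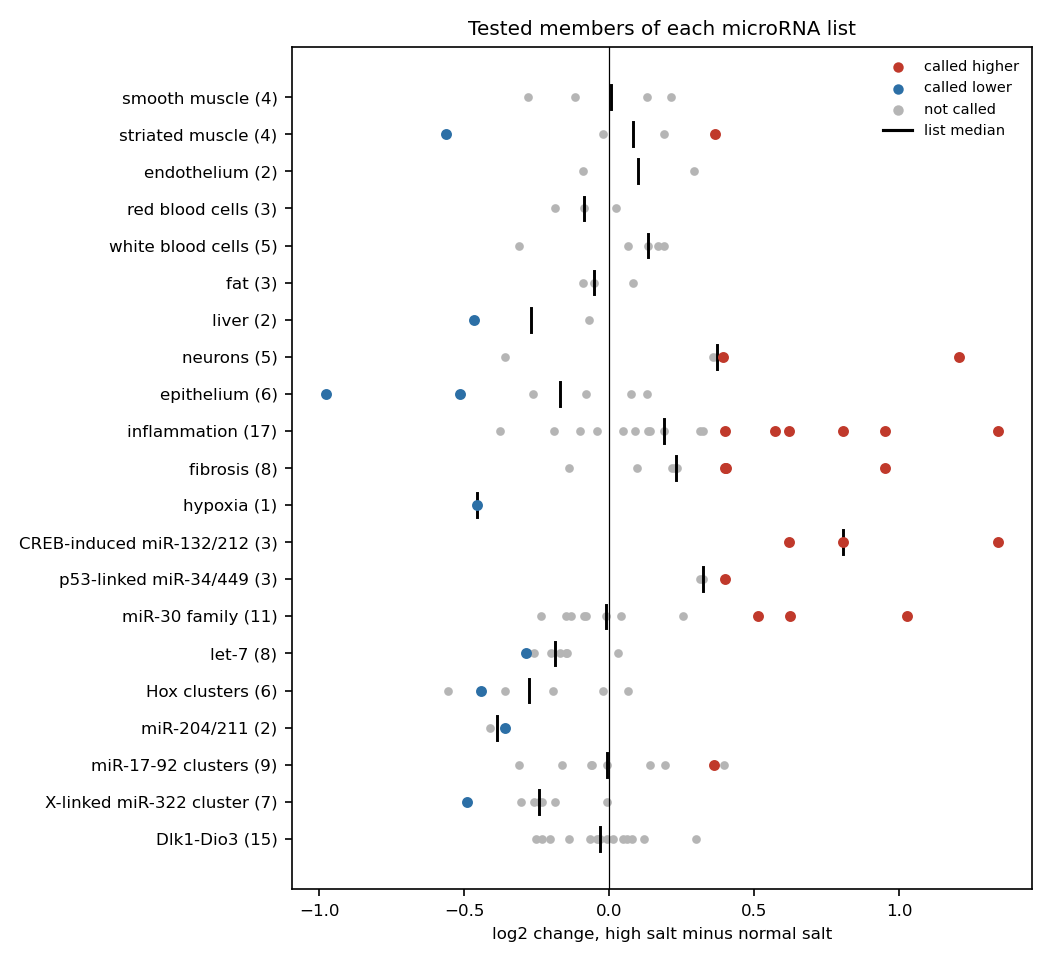
Log2 change on HSD relative to NSD (horizontal axis) of each tested member of 21 lists (rows, number tested in brackets), coloured by call, with the list median as a bar. The CREB-induced, inflammation, fibrosis and neuronal rows hold 3, 6, 3 and 2 higher calls and 0 lower calls, and the smooth muscle, endothelial, blood, fat and Dlk1-Dio3 rows hold 0 calls.

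Several groups that mark the main cells of the aorta or the blood held 0 calls. The 4 tested smooth muscle microRNAs had log2 changes on either side of 0 and a median of 0.01, with -0.12 ± 0.11 for miR-143-3p and -0.28 ± 0.13 for miR-145-5p. Within S2Bb, however, miR-145-5p was lower (2879 ± 583 nRPM on HSD and 4599 ± 809 nRPM on NSD, SD, n = 6 each, log2 change -0.69, limma adjusted p = 0.0379), without overlap of the diets. Their summed level was 237274 to 662103 nRPM on HSD and 340943 to 742576 nRPM on NSD. Endothelial miR-126a-5p averaged 2369 ± 697 nRPM on HSD and 1964 ± 865 nRPM on NSD (SD, n = 16 each) and was not called (0.29 ± 0.16, limma adjusted p = 0.227). Its change was -0.0030 without S2Bb and 0.47 without SS, where it was called (limma adjusted p = 0.0383). On the log2 scale S2Bb HSD replicates 2 and 3 lay 0.83 above the S2Bb NSD mean, and the other S2Bb HSD libraries 0.76. Without the 2 shallowest libraries 1 endothelial microRNA was called higher. Red blood cell microRNAs summed to 2.61 to 92.0 nRPM on HSD and 3.63 to 70.5 nRPM on NSD, so their amount varied widely within each diet. Of 15 tested microRNAs of the imprinted Dlk1-Dio3 cluster 0 were called, and their median was -0.03. A p that misses the threshold does not show that these levels were equal.

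Arms and neighbours of called microRNAs were read as a description, since they share a transcript with the call, and each pair was counted once. The other arm of a higher call was positive in 10 of 11 pairs, and in 3 (miR-212, miR-21 and miR-24-2) both arms were called. For lower calls the other arm was negative in 2 of 4 pairs, and the arms of miR-708 were the 1 pair called together. Neighbours with a precursor within 10 kb on the same strand were positive in 17 of 20 pairs with a higher call, of which 2 were called, and negative in 7 of 8 pairs with a lower call, of which 0 were called. Arms that did not move together included those of miR-29c-5p, lower while miR-29c-3p was at 0.22 ± 0.13. Pairs could be formed only for names matched to RefSeq, which left out miR-30b and miR-30d. Both arms of miR-30d were called higher, whereas miR-30b-3p was higher while miR-30b-5p was at -0.13 ± 0.15.

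As contrasts within each strain, taken from 1 fit of the 6 groups with a shared variance, diet gave 5 calls in SS (1.03%), 4 in S2Ba (0.826%) and 29 in S2Bb (5.99%), and of these 2, 4 and 18 were also calls of the main effect. Conversely, 41 of the 61 calls, 25 higher and 16 lower, passed in no strain's own contrast, among them miR-22-3p, miR-21-3p, miR-24-2-5p, miR-27a-3p and miR-10b-5p. Each strain's own log2 change had the same sign in all 3 strains for 58 of 61 calls (95.1%), against 206 of 484 tested microRNAs (42.6%), a share that the choice of calls by their average raises. Across all 484 microRNAs the changes of SS and S2Ba correlated with Pearson's r of 0.455 and Spearman's rho of 0.375, those of SS and S2Bb with 0.348 and 0.367, and those of S2Ba and S2Bb with 0.467 and 0.412. No library is shared between strains, and microRNAs are not independent replicates.

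**Figure D4:**
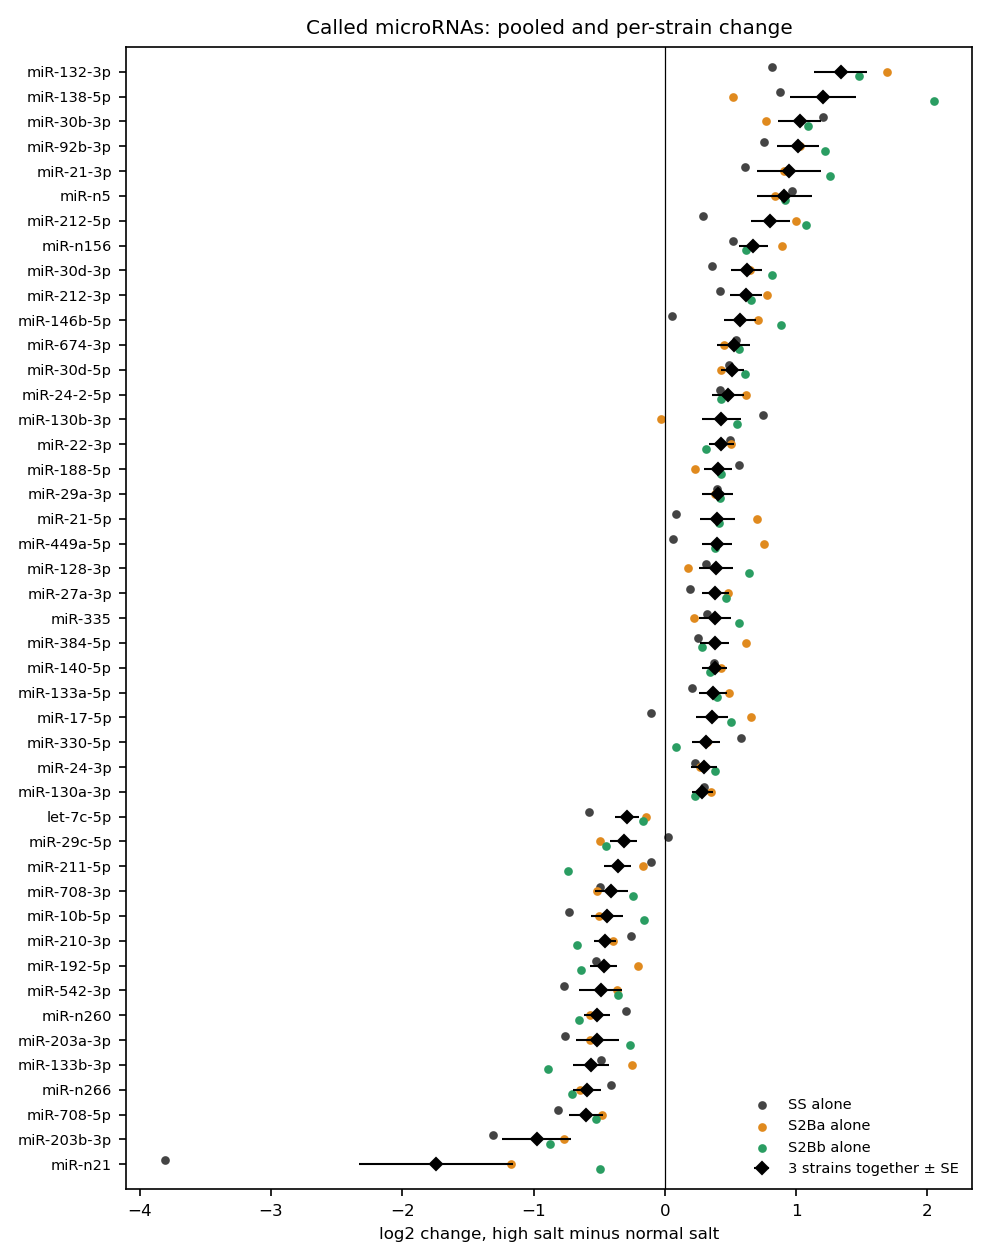
Log2 change on HSD relative to NSD (horizontal axis) for the named calls, with the 3-strain estimate and its SE as a diamond and each strain's own estimate as a coloured point. For 3 of these calls a strain lies on the other side of 0: S2Ba for miR-130b-3p and SS for miR-17-5p and miR-29c-5p.

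A test of whether the diet response differed between strains, limma's F test of the interaction, made 0 calls (0%), with 36 microRNAs at an unadjusted p under 0.05 (7.44%). edgeR and DESeq2 on recovered reads made 3 calls each. Taken pair by pair, the diet response differed between S2Bb and SS for 2 microRNAs (0.413%, with 46 or 9.5% at an unadjusted p under 0.05), between S2Ba and SS for 0 (36 or 7.44% at an unadjusted p under 0.05) and between S2Bb and S2Ba for 0 (20 or 4.13%). The smallest p of the F test belonged to miR-204-5p (0.000125, limma adjusted p = 0.0604). It averaged 307 ± 60.5 nRPM on HSD and 255 ± 85.4 nRPM on NSD in SS (SD, n = 5 each), 177 ± 45.8 and 222 ± 44.5 nRPM in S2Ba (n = 5 each), and 207 ± 34.8 and 439 ± 73.4 nRPM in S2Bb (n = 6 each). Its S2Bb response minus its SS response was -1.40 ± 0.28 (SE, limma adjusted p = 0.013). The Hox microRNA miR-196b-5p followed (limma adjusted p = 0.167), with 13.4 ± 12.4 nRPM on HSD and 86.5 ± 81.3 nRPM on NSD in SS and 16.3 ± 7.08 and 8.14 ± 2.37 nRPM in S2Bb (n = 5 and 6 in each diet). Its S2Bb response minus its SS response was 3.07 ± 0.71 (limma adjusted p = 0.0369). Next came miR-221-5p, miR-223-3p and miR-30e-3p, with strain-wise changes of 0.35, 0.08 and -0.62, of -0.30, 0.18 and 0.60, and of -0.24, -0.09 and 0.38 in SS, S2Ba and S2Bb (limma adjusted p of 0.546, 0.556 and 0.556). Among the calls, miR-146b-5p (limma adjusted p = 0.556 for the interaction) and miR-138-5p (0.557) had unadjusted interaction p of 0.00967 and 0.0224, and miR-138-5p changed by 0.88 in SS, 0.52 in S2Ba and 2.05 in S2Bb.

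Calls made in 2 strains were then read in the strain left out, whose libraries had no part in that fit. The filter had been set on all 32 libraries, however, so the strain left out helped to choose which microRNAs were tested. S2Ba and S2Bb together made 58 calls (12%), of which 46 (79.3%) had the same direction in SS and 6 (10.3%) also an unadjusted p under 0.05 there, with SS fitted by itself. Over all 484 microRNAs these shares were 62.2% and 5.79%. SS and S2Bb made 24 calls (4.96%), of which 21 (87.5%) had the same direction in S2Ba and 13 (54.2%) passed there, against 65.5% and 13% of all. SS and S2Ba made 6 calls (1.24%), of which 6 (100%) had the same direction in S2Bb and 4 (66.7%) passed there, against 66.7% and 17.8% of all. The median change of the calls, signed by the direction in the other strains, was 0.26 in SS, 0.54 in S2Ba and 0.86 in S2Bb. miR-132-3p, miR-30b-3p, miR-92b-3p and miR-n156 were called in each of the 3 pairs of strains.

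**Figure D5:**
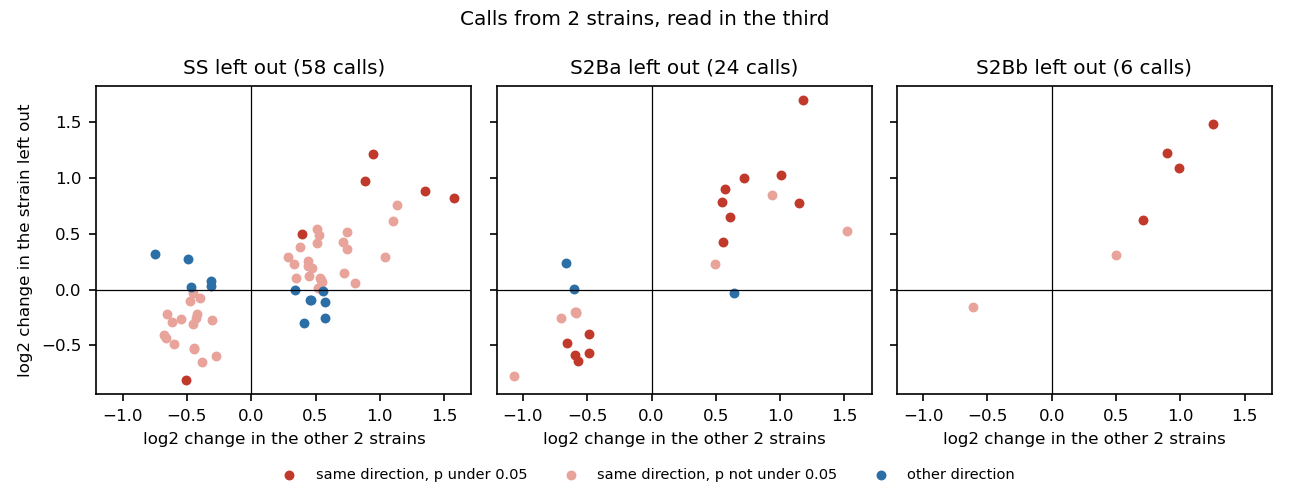
Log2 change in the strain left out (vertical axis) against the change in the other 2 strains (horizontal axis) for each microRNA called in those 2, HSD relative to NSD. Of the calls, 46 of 58 (SS left out), 21 of 24 (S2Ba left out) and 6 of 6 (S2Bb left out) have the same direction in both.

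S2Bb HSD replicates 2 and 3 carry lower title numbers than the S2Bb NSD animals. Set against the S2Bb NSD mean, they had the direction of the main effect for 58 of the 61 calls, 33 of 36 higher and 25 of 25 lower, and the other 4 S2Bb HSD libraries had it for 61 of 61. Over all 484 microRNAs the counts were 369 and 365. These libraries are part of the fit, so the counts describe it and do not test it. Without these 2 libraries 43 calls were made, 27 higher and 16 lower, of which 42 were among the 61. Named calls lost there were miR-21-5p, miR-24-3p, miR-128-3p, miR-384-5p and let-7c-5p, besides miR-29a-3p and miR-211-5p given above. Also lost were miR-17-5p, miR-130b-3p, miR-203a-3p, miR-29c-5p, miR-330-5p, miR-335, miR-542-3p and miR-n21.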

How the data were processed

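Small RNA libraries were made per the labels' protocols with TruSeq small RNA reagents from mirVana total RNA, 1 library per animal. The authors' tools, per the submitters' processing notes, included STAR 2.3.1, edgeR 3.6.8, bcl2fastq 1.8.4, R 3.2.3 and FastQC. The sources used here give neither the genome build nor the rule that assigned reads to microRNAs. The deposited table holds a normalized signal per microRNA (nRPM). As deposited, 100% of values are whole multiples (tolerance 1e-06) of what 1 read is worth in that library, so whole reads were recovered for depth and for count tests. SDs are over animals, and floors of 3 reads cover counting error only.

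The main test was limma 3.58.1 (R 4.3.3) on log2(nRPM + 1) with strain and diet as terms and an intensity trend, on microRNAs that reached 1 nRPM in 5 or more of 32 libraries, with Benjamini-Hochberg adjustment over 484. The deposited values are normalized and not raw, so a count test was an alternative: edgeR 4.0.16 made 65 calls (41 higher, 24 lower) and DESeq2 1.42.0 made 81 (41 higher, 40 lower). The interaction was tested in the same fit with a strain by diet term. The fits were also run on simulated reads of the filtered microRNAs, with known diet effects and no strain by diet effect. That run checks the code and says nothing about the calls themselves. Other alternatives were 3 scalings, pseudocounts of 0.5 and 5, other filters, limma-voom, a group-mean fit, no strain term, depth as a covariate, leaving out each library, each strain or doubted libraries, and assigning the identical library to either strain.

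Named were the calls of a fixed rule (up to 15 miRBase names in each direction by size of change with a mean of at least 10 nRPM, and up to 2 miR-n names in each direction by p), list members and relatives of calls, and the 5 smallest interaction p. Of 94 taken, miR-n21 included, 17 uncalled ones with a log2 change under 0.1 in size are given only in counts, which was decided after their values were seen. The members and the 21 lists were chosen with earlier results of these data known. Of 576 names in miRBase style 518 matched a RefSeq (GRCr8) sequence. Neighbours came from that assembly, as the build of the files is not given.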

Additional observations from a re-analysis of the deposited data

Results flagged for a closer look

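Within groups of 5 or 6 libraries, 15 of 282 groups of values (5.32%) held a library far from the others by Dixon's criterion on the log2 scale, where chance gives about 1 in 20. The shallowest library, SS HSD replicate 2, accounted for 5. It was high for miR-30d-5p (9749 nRPM, the other SS HSD libraries 4994 to 5777 nRPM) and miR-92b-3p (12.5 against 1.81 to 2.21 nRPM). It was low for miR-24-2-5p (85.3 against 172 to 213 nRPM), miR-21-5p (1333 against 2475 to 3031 nRPM) and miR-27a-3p (537 against 1036 to 1319 nRPM). Of these 5 calls, that of miR-21-5p alone was lost in some leave-one-out fits.

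S2Ba NSD replicate 1 was high for miR-138-5p (39.3 nRPM, the other S2Ba NSD libraries 6.998 to 10.6 nRPM), miR-17-5p (4.89 against 2.20 to 2.51 nRPM) and miR-708-3p (3.65 against 1.48 to 1.96 nRPM). S2Ba NSD replicate 6 was high for miR-449a-5p (0.956 against 0.168 to 0.342 nRPM) and low for miR-n21 (39.1 against 92.4 to 126 nRPM). SS NSD replicate 5 was high for miR-330-5p (13.2 against 6.50 to 7.56 nRPM) and miR-130b-3p (1.39 against 0.272 to 0.513 nRPM). Single high values were those of miR-21-5p in S2Bb NSD replicate 2 (4587 against 2391 to 2618 nRPM), miR-24-3p in S2Ba HSD replicate 1 (4319 against 3220 to 3456 nRPM) and miR-29c-5p in S2Ba HSD replicate 5 (8.27 against 6.76 to 7.11 nRPM).

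The diet response differed between S2Bb and SS by -1.40 for miR-204-5p and by 3.07 for miR-196b-5p (S2Bb minus SS, log2 scale, limma adjusted p = 0.013 and 0.0369), although the F test over the 3 strains made 0 calls. The miR-204-5p interaction passed the F test with edgeR and DESeq2, with RLE factors and without SS NSD replicate 6 (adjusted p = 0.0122). The miR-196b-5p interaction passed it with edgeR (adjusted p = 0.0299) and DESeq2 (0.00064), without SS NSD replicate 3 (0.00514) and without SS HSD replicate 6 (0.0324).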

How the results depend on the processing

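The count of 61 calls (36 higher, 25 lower) was 60 and 61 with the other pseudocounts, 53 to 67 with the stricter filter, group means, depth as a covariate, edgeR, RLE factors or the identical library assigned, and 49 without a strain term. Total-read scaling gave 14 lower calls (63 in all, 49 higher), and leaving miR-143-3p out of the total gave 88 calls, 72 higher and 16 lower. The median change of all microRNAs was -0.01 as deposited, 0.07 and 0.08 under these scalings and -0.05 with RLE factors. Without a filter there were 42 calls, 27 higher and 15 lower, and DESeq2 gave 40 lower calls. limma-voom gave 117 calls, 64 higher and 53 lower. Without SS there were 58 calls, without S2Ba 24 (12 higher, 12 lower) and without S2Bb 6 (5 higher, 1 lower). Without the 2 shallowest libraries there were 92 calls, 54 higher and 38 lower, and without the 2 low-numbered S2Bb HSD libraries 16 lower calls. Fewer libraries entered these fits, and the cause of the other shifts was not tested.

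Leaving out 1 library gave 43 to 79 calls, 25 to 47 higher and 16 to 32 lower, the most without SS HSD replicate 2. Of the 61 calls, 39 (24 higher, 15 lower) passed in all 32 such fits, and 4 (miR-132-3p, miR-30b-3p, miR-92b-3p and miR-n156) in all other alternatives too. No call changed sign under any alternative run. The interaction gave 0 to 2 calls in leave-one-out fits, 3 with edgeR and with DESeq2, and 1 with RLE factors, the stricter filter, limma-voom, either assignment of the identical library, without S2Ba and without the 2 shallowest libraries. Some uncalled changes changed sign: miR-196b-5p without SS (0.20), miR-221-5p under total-read scaling (0.0025), with miR-143-3p left out of the total (0.0059) and without S2Bb (0.21), and miR-30e-3p with RLE factors (-0.00069), with DESeq2 (-0.0039) and without S2Bb (-0.16). Without S2Bb this also held for miR-223-3p (-0.057), miR-126a-5p (-0.0030), miR-146a-5p (-0.093), miR-26a-5p (0.0062) and miR-451-5p (0.40, with -0.37 to 0.032 in leave-one-out fits, where it was 0.032 without S2Bb NSD replicate 5).

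No paired analysis was possible because the replicate numbers were given in accession order and the labels name no pairing. Read number limits the 7 calls with a mean below 1 nRPM, some of whose values lie near or below the floors of deeper libraries too. An example is miR-133a-5p in S2Ba NSD replicate 6 (0.0956 nRPM, floor 0.143 nRPM, 22.3 M reads). The stricter filter left out miR-212-3p, miR-212-5p, miR-133a-5p, miR-384-5p, miR-449a-5p and miR-708-5p, so these calls were not tested under it.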
